A study of Mus musculus with 17 samples.

Results

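The mast cell genes described here were 10 of the 55421 genes counted in RNA of mouse colon tumors: Mcpt1, Mcpt2, Mcpt4, Cma1, Tpsb2, Cpa3, Kit, Ms4a2, Fcer1a and Hdc. They were chosen by symbol, and each was found once in the tables through its Ensembl identifier. All 17 libraries came from colon tumors induced with azoxymethane, a mutagen, and dextran sulfate sodium, which inflames the colon (AOM/DSS). The Tyk2KO group held 3 libraries from mice with a germline deletion of Tyk2 (Tyk2Δ/Δ in the study), obtained by crossing a floxed allele to a CMV-cre deleter that was then outcrossed. The Tyk2wt group held 3 libraries from their Tyk2+/+ littermates. The Tyk2DIEC group held 4 libraries from Tyk2fl/fl mice carrying Villin-cre, which is active in intestinal epithelium, so that other cells of the tumor, mast cells included, kept Tyk2. The Tyk2fl group held 7 libraries from cre-negative Tyk2fl/fl mice, and both of these groups carried the floxed allele. All mice were on a C57BL/6 background, and their age was not given in the sources used here. The labels describe single tumors taken for RNA, the study writes of pooled tumor samples in its qPCR, and neither states whether each library came from a separate mouse, so a p-value here covers the spread among libraries and perhaps not that among mice.

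Mast cells store proteases, proteoglycans and histamine in granules and release them when antigen crosslinks IgE bound to their high-affinity receptor, FcεRI. In mice, mucosal mast cells of the gut are known for the chymases Mcpt1 and Mcpt2, and connective tissue mast cells of skin, submucosa and peritoneum for the chymases Mcpt4 and Cma1, the tryptase Tpsb2 and carboxypeptidase Cpa3. Kit, the receptor of stem cell factor, keeps both kinds alive. Tyk2 is a Janus kinase downstream of receptors for type I interferons, interleukin-12 and related cytokines.

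The chymase genes lie together on chromosome 14 (GRCm38; positions from GENCODE release 21). Cma1 occupies chr14:55941451-55944675 on the minus strand, Mcpt1 chr14:56017971-56020384 and Mcpt2 chr14:56042041-56044642 on the plus strand, and Mcpt4 chr14:56059629-56062313 on the minus strand. Tpsb2 lies elsewhere, at chr17:25366305-25369098 on the plus strand. The remaining genes are Cpa3 (chr3:20215620-20242181, minus), Kit (chr5:75574916-75656722, plus), Ms4a2 (chr19:11615523-11623719, minus), Fcer1a (chr1:173221284-173227214, minus) and Hdc (chr2:126593667-126619299, minus). All are protein-coding. Because reads were 75 bp long and chymases are alike, each 75-base stretch of the annotated transcripts was searched for in all other genes. None was shared for Mcpt1, Mcpt2, Tpsb2, Cpa3, Kit, Fcer1a or Hdc. Mcpt4 shared 2.51% of its stretches, mostly with Cma2, Cma1 shared 1.67% with Gm48934, and Ms4a2 shared 1.22% with Ms4a4b. The only annotated gene that overlaps any of the 10 is the microRNA gene Mir7007, inside Cpa3 on the same strand.

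The stretches in front of 6 start sites are shown, which are the windows in which the letters described below were found. Kit and Hdc, whose windows held none, are not shown. Of the genes shown, 4 (Mcpt1, Mcpt4, Cpa3 and Fcer1a) varied together between libraries. Ms4a2 and, once 1 library was left out, Cma1 varied with them only weakly. A link between these letters and that variation was not tested. Each line gives the 120 bases before the RefSeq start site on GRCm38.p6, read along the strand of the gene. Capitals mark the letters bound by GATA factors, of which Gata1 and Gata2 act in mast cells. The letters searched were AGATAA and its variants with another first letter (written TGATAA), another last letter (written AGATAG) or both (written TGATAG), on both strands, and a match on the other strand is printed as its reverse complement. The windows are chr14:56017844-56017963 (plus) for Mcpt1, chr14:56062311-56062430 (minus) for Mcpt4, chr3:20242182-20242301 (minus) for Cpa3, chr1:173227230-173227349 (minus) for Fcer1a, chr14:55944676-55944795 (minus) for Cma1 and chr19:11623720-11623839 (minus) for Ms4a2.
Mcpt1: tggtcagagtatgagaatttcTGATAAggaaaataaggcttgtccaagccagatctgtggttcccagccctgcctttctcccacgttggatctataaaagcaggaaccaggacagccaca
Mcpt4: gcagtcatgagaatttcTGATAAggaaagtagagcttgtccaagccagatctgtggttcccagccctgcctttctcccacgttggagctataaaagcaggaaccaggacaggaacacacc
Cpa3: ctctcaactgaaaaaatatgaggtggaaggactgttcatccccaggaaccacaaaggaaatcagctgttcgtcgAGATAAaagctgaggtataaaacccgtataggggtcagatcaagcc
Fcer1a: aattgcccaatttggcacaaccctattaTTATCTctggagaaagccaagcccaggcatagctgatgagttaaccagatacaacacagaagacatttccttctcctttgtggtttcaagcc
Cma1: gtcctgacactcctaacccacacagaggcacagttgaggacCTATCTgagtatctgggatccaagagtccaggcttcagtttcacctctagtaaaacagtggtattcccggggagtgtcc
Ms4a2: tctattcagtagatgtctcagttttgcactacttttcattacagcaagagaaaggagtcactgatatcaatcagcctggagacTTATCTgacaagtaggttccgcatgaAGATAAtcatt

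RefSeq promoters were matched for 8 of the 10 genes, and Mcpt2 and Tpsb2 were not matched. Of these 8, the 6 printed genes held a GATA match within the 120 bases and Kit and Hdc held none, whereas 12.8% of 32851 mouse promoters held one in the same window. Over 300 bases (250 before and 50 after the start), 7 of the 8 and 29.8% of all promoters held a match, Hdc being the addition with a match at position -221. Matches began at -99 in Mcpt1, -103 in Mcpt4, -79 in Cma1, -46 in Cpa3 and -92 in Fcer1a, counted from the start site. Ms4a2 held 3 matches, at -224, -37 and -11. The mucosal gene Mcpt1 and the connective tissue gene Mcpt4 shared an identical run of 53 bases in the printed windows, whereas no other pair of the 8 windows shared more than 9. The E-box letters CACGTG or CATGTG, searched on both strands, were in the 300 bases of 1 gene, Fcer1a, and of 20.4% of all promoters. These are matches of letters, and binding was not measured here.

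Counts on genes summed to 19922606 to 21707373 in Tyk2KO, 19789347 to 21318077 in Tyk2wt, 19129696 to 20334948 in Tyk2DIEC and 29777763 to 35427965 in Tyk2fl libraries, so Tyk2fl was sequenced more deeply. Tyk2 itself had 58.0 to 59.0 CPM (counts per 1000000) in Tyk2KO, against 55.5 to 57.7 CPM in Tyk2wt, and 51.8 to 55.7 CPM in Tyk2DIEC, against 42.5 to 54.1 CPM in Tyk2fl libraries. The floxed sequence holds exon 3 with the start codon, and the counts cover the whole gene, so this level checks no label. Xist had 40656 to 45446 counts in Tyk2fl replicates 1 to 3 and at most 106 in each of the other 14 libraries. Epithelial markers (Epcam, Krt8, Vil1 and 5 others) summed to between 5028 and 7733 CPM in every library, which fits the labelled tissue. The basophil protease genes Mcpt8 and Prss34 stayed at no more than 13 and 5 counts in any library. All 10 mast cell genes had counts in all 17 libraries, the lowest being 5 counts of Fcer1a in Tyk2DIEC replicate 3.

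Per kilobase of exon, the mucosal proteases were the most abundant of the 10 genes. Mcpt1 averaged 27.8 and Mcpt2 25.1 CPM per kb over the 17 libraries. Next came the connective tissue chymase Cma1 with 8.15, the tryptase Tpsb2 with 3.18, Cpa3 with 2.12 and Mcpt4 with 1.65 CPM per kb. Hdc averaged 1.52, Kit 1.36, Fcer1a 1.16 and Ms4a2 0.926 CPM per kb. Between libraries the levels ran over a wide range for most genes. The highest library exceeded the lowest 18.9-fold for Cpa3, 15.4-fold for Tpsb2, 14.9-fold for Fcer1a and 11.97-fold for Mcpt1, but 3.75-fold for Cma1 and 2.79-fold for Kit. Tyk2DIEC replicate 3 was the lowest of all libraries for Mcpt1, Mcpt2, Mcpt4, Tpsb2, Cpa3 and Fcer1a. Tyk2fl replicate 4 was the highest for Mcpt1, Mcpt2, Mcpt4, Cma1, Tpsb2 and Cpa3.

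**Figure D1:**
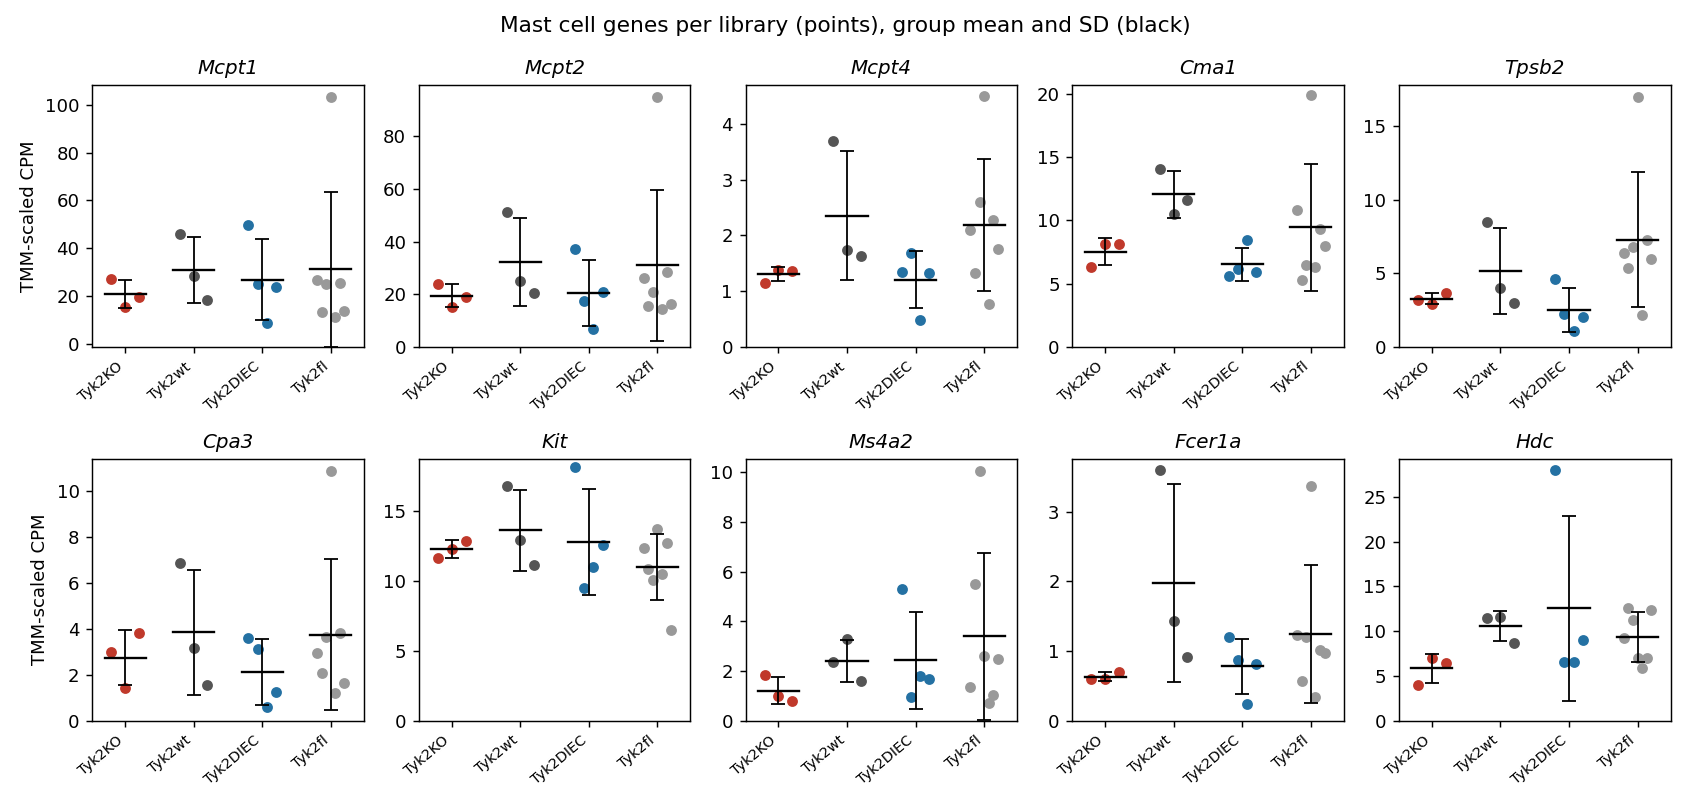
Levels of the 10 mast cell genes, 1 panel per gene, in TMM-scaled CPM on the vertical axis, with 1 point per library, the group mean as a black line and the SD as a bar, for Tyk2KO (n = 3), Tyk2wt (n = 3), Tyk2DIEC (n = 4) and Tyk2fl (n = 7). One Tyk2fl library stands above all others for Mcpt1 at 103.1 CPM and Tyk2KO points lie below all Tyk2wt points for Mcpt4, Cma1, Fcer1a and Hdc. Of all genes tested, 14.0% separated Tyk2KO from Tyk2wt libraries in this direction.

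Whether loss of Tyk2 in all cells altered these transcripts was asked by comparing Tyk2KO with Tyk2wt tumors. None of the 10 genes passed the test, in which a gene was called at an adjusted p under 0.05 by edgeR's quasi-likelihood test with Benjamini-Hochberg adjustment over all genes, and 2.8% of the 16179 genes tested were called, 2.13% as lower. All 10 log2 fold changes were below 0, where 49.3% of all genes tested had one below 0. Their median was -0.71, against 0.00 for all genes. At an unadjusted p under 0.05, 5 of the 10 were lower, where 13.1% of all genes were. The 10 genes were not independent, since 6 of them varied together within genotypes (Pearson r of 0.83 to 0.98). These counts are therefore not 10 separate results. In bulk tumor RNA, fewer mast cells and less RNA per mast cell cannot be told apart.

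Among the mucosal proteases, Mcpt1 had 27.1, 15.5 and 19.7 CPM in the Tyk2KO libraries, against 45.8, 28.4 and 18.3 CPM in the Tyk2wt libraries. The groups overlapped, and Tyk2wt replicate 1 was the highest of the 6. The log2 fold change of Mcpt1 was -0.58 (SE 0.33, adjusted p = 0.331). Mcpt2 had 23.8, 15.3 and 19.1 CPM in Tyk2KO tumors, against 51.4, 24.9 and 20.4 CPM in Tyk2wt tumors. It followed Mcpt1 library by library, with the same highest library and again overlapping groups. Its log2 fold change was -0.74 (SE 0.33, adjusted p = 0.236).

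The connective tissue chymases Cma1 and Mcpt4 did not pass the test either. Cma1 had 6.29, 8.14 and 8.13 CPM in Tyk2KO tumors, against 14.1, 10.46 and 11.6 CPM in Tyk2wt tumors. Every Tyk2KO library lay below every Tyk2wt library. The log2 fold change was -0.69 (SE 0.16) and its adjusted p of 0.0665 was the lowest of the 10 genes. Mcpt4 had 1.16, 1.39 and 1.36 CPM in Tyk2KO tumors, against 3.69, 1.74 and 1.64 CPM in Tyk2wt tumors. Here too the groups did not overlap, and Tyk2wt replicate 1 stood well above the other libraries (log2 fold change -0.86, SE 0.35, adjusted p = 0.196). Such a separation in the lower direction was found in 14.0% of all genes tested. The tryptase Tpsb2 had 3.19, 2.93 and 3.66 CPM in Tyk2KO tumors, against 8.48, 4.001 and 2.98 CPM in Tyk2wt tumors. Its groups overlapped, with Tyk2wt replicate 3 inside the Tyk2KO range (log2 fold change -0.67, SE 0.37, adjusted p = 0.322).

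Of the genes for the IgE receptor, Fcer1a encodes the α chain that binds IgE and Ms4a2 the β chain that amplifies its signal. Fcer1a had 0.601, 0.595 and 0.705 CPM in Tyk2KO tumors, against 3.59, 1.44 and 0.914 CPM in Tyk2wt tumors. The 3 Tyk2KO libraries lay close together and, as in 14.0% of all genes tested, below all 3 Tyk2wt libraries, which differed widely among themselves. The log2 fold change of -1.64 was the largest in size of the 10 in this comparison, with an SE of 0.51 and an adjusted p of 0.118. Ms4a2 had 1.85, 0.992 and 0.799 CPM in Tyk2KO tumors, against 2.35, 3.28 and 1.59 CPM in Tyk2wt tumors. The ranges touched only through Tyk2KO replicate 1 and Tyk2wt replicate 3 (log2 fold change -0.98, SE 0.38, adjusted p = 0.182).

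Hdc encodes histidine decarboxylase, which makes histamine and is also found in basophils, neutrophils and enterochromaffin-like cells. It had 4.02, 6.995 and 6.48 CPM in Tyk2KO tumors, against 11.5, 11.5 and 8.71 CPM in Tyk2wt tumors. All Tyk2KO libraries lay below all Tyk2wt libraries (log2 fold change -0.87, SE 0.22, adjusted p = 0.0793), as in 14.0% of all genes tested. Cpa3 had 3.004, 1.44 and 3.81 CPM in Tyk2KO tumors, against 6.85, 3.18 and 1.54 CPM in Tyk2wt tumors. These groups overlapped almost fully (log2 fold change -0.49, SE 0.53, adjusted p = 0.620), and the value was 0.23 without Tyk2wt replicate 1. Kit, which interstitial cells of Cajal also express, had 11.6, 12.3 and 12.9 CPM in Tyk2KO tumors, against 16.8, 12.9 and 11.1 CPM in Tyk2wt tumors. Its log2 fold change of -0.16 (SE 0.16, adjusted p = 0.590) was the smallest in size, and it was 0.03 without the same Tyk2wt library.

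Tyk2wt replicate 1 weighed on most of these values. Without it the log2 fold change was -0.17 for Mcpt1, -0.22 for Mcpt2, -0.38 for Mcpt4, -0.10 for Tpsb2 and -0.88 for Fcer1a, while it was -0.56 for Cma1, -0.80 for Hdc and -0.996 for Ms4a2. The calls also depended on the tool. DESeq2's Wald test called 3 of the genes lower in Tyk2KO tumors, Hdc (adjusted p = 0.00752), Cma1 (adjusted p = 0.00774) and Fcer1a (adjusted p = 0.0485), and it called 8.12% of all genes. Without the filter on low counts, edgeR called Hdc (adjusted p = 0.0235) and Cma1 (adjusted p = 0.0258), and 3.47% of all genes.

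Markers of other cells were also counted in this comparison, where 2.13% of all genes tested were called as lower. General leukocyte markers were lower for 4 of 6 genes, with a summed level of 112 to 140 CPM in Tyk2KO, against 178 to 225 CPM in Tyk2wt libraries. The largest of these changes was that of Ptprc, the pan-leukocyte antigen CD45 (log2 fold change -1.10, SE 0.17, adjusted p = 0.0172). Smooth muscle markers fell for 6 of 8 genes and summed to 195 to 271 CPM in Tyk2KO, against 349 to 536 CPM in Tyk2wt libraries. Neutrophil markers fell for 2 of 6 genes, S100a8 and S100a9, with sums of 58.7 to 86.0 CPM in Tyk2KO, against 116 to 144 CPM in Tyk2wt libraries. Of the dendritic cell markers 1 of the 4 tested fell, Bst2, which plasmacytoid dendritic cells carry and interferon induces (log2 fold change -1.62, SE 0.11, adjusted p = 0.000846). Their sums were 15.9 to 18.6 CPM in Tyk2KO, against 41.7 to 49.6 CPM in Tyk2wt libraries. The sums did not overlap for any of these 4 lists, and no marker in them was at 0 in these 6 libraries. Of all single genes tested, 14.0% separated the groups without overlap in the lower direction. Epithelial markers (0 of 8 called) and basophil markers (0 of the 3 tested) gave no call. Nor did fibroblast markers (0 of 7, median log2 fold change 0.30). Interstitial cell of Cajal markers, Kit among them, gave none (0 of the 5 tested, median 0.16). Enterochromaffin-like and enteroendocrine markers gave none either (0 of the 4 tested, median -0.51). The part of these cells in the values of the mast cell genes was not tested.

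**Figure D2:**
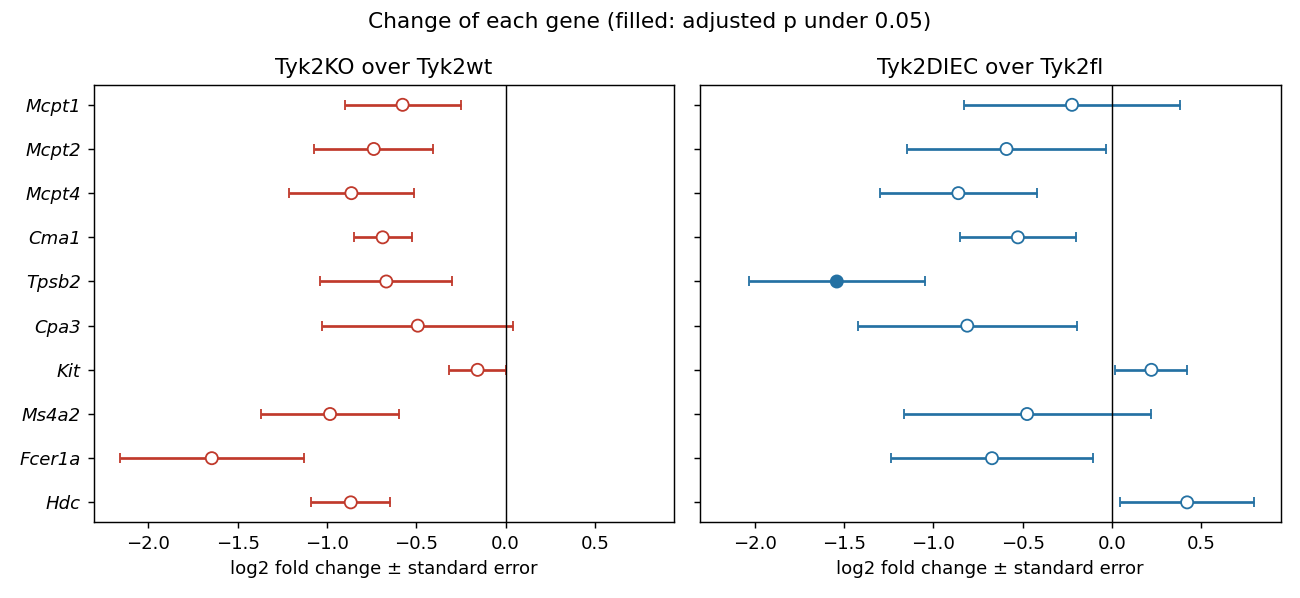
Log2 fold change of each mast cell gene on the horizontal axis with its standard error, for Tyk2KO over Tyk2wt (left) and Tyk2DIEC over Tyk2fl (right). Filled points passed an adjusted p under 0.05, which was the case only for Tpsb2 in Tyk2DIEC tumors at -1.54, and all 10 points lie below 0 on the left.

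The comparison of Tyk2DIEC with Tyk2fl tumors asked how the same transcripts differ when Tyk2 is lost in the epithelium alone. The groups were also unbalanced in Xist, which was high in Tyk2fl replicates 1 to 3 and had at most 10 counts in each Tyk2DIEC library. The contrast therefore does not isolate the deletion. The tryptase Tpsb2 was the only one of the 10 that passed the test, and it fell. Of the 17668 genes tested here 19.9% were called, 9.71% as lower and 10.2% as higher. The median log2 fold change of the 10 genes was -0.56, against -0.00 for all genes, and 8 of the 10 were below 0, where 50.4% of all genes were. Here too the 10 genes were not independent of each other. No mast cell gene separated the groups without overlap, which 7.81% of all genes did in the lower direction.

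Tpsb2 had 4.63, 2.25, 1.11 and 2.03 CPM in the 4 Tyk2DIEC libraries. In the 7 Tyk2fl libraries it had 2.19 CPM at the lowest, 6.41 at the median and 17.01 at the highest. The 3 lower Tyk2DIEC libraries lay near or under the lowest Tyk2fl library, and only Tyk2fl replicate 5 was as low as they were. The log2 fold change was -1.54 (SE 0.49, adjusted p = 0.0443), which also exceeded the 2-fold threshold that 3.12% of all genes passed together with the adjusted p. The call was near the threshold. It was lost with limma voom (adjusted p = 0.101), without the 3 Tyk2fl libraries of high Xist (adjusted p = 0.0665) and in 9 of 11 fits that left out 1 library. Of those fits, the adjusted p was 0.112 without Tyk2DIEC replicate 2, 0.131 without replicate 3 and 0.105 without replicate 4, and it was 0.0509, 0.0531, 0.0539, 0.0589, 0.0641 and 0.0521 without Tyk2fl replicate 1, 2, 3, 4, 6 or 7. The value stayed between -2.03 and -1.18 in all 11 of them, and it was -1.18 without Tyk2fl replicate 4.

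The other connective tissue proteases gave values below 0 that did not pass. Mcpt4 had 1.34, 1.68, 0.481 and 1.32 CPM in Tyk2DIEC tumors, against a lowest of 0.767, a median of 2.09 and a highest of 4.50 CPM in Tyk2fl tumors. The Tyk2DIEC libraries lay within or under the lower part of the Tyk2fl range (log2 fold change -0.86, SE 0.44, adjusted p = 0.189). Cma1 had 5.64, 6.18, 8.47 and 5.89 CPM in Tyk2DIEC tumors, against a lowest of 5.31, a median of 7.98 and a highest of 19.9 CPM in Tyk2fl tumors. Tyk2DIEC replicate 3, the lowest library for the other proteases, was the highest Tyk2DIEC library for Cma1 (log2 fold change -0.53, SE 0.33, adjusted p = 0.277).

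For the mucosal proteases no change was detectable. Mcpt1 had 49.6, 24.9, 8.61 and 23.8 CPM in Tyk2DIEC tumors, against a lowest of 10.99, a median of 24.8 and a highest of 103.1 CPM in Tyk2fl tumors. The log2 fold change was -0.22 (SE 0.61, adjusted p = 0.832), and it was 0.47 without Tyk2fl replicate 4 and 0.06 without Tyk2DIEC replicate 3, so its sign rested on single libraries. Mcpt2 had 37.1, 17.5, 6.78 and 20.97 CPM in Tyk2DIEC tumors, against a lowest of 14.3, a median of 20.8 and a highest of 94.8 CPM in Tyk2fl tumors. Its log2 fold change of -0.59 (SE 0.56, adjusted p = 0.490) likewise became 0.02 without Tyk2fl replicate 4.

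Cpa3 had 3.58, 3.11, 0.577 and 1.27 CPM in Tyk2DIEC tumors, against a lowest of 1.22, a median of 2.93 and a highest of 10.9 CPM in Tyk2fl tumors (log2 fold change -0.81, SE 0.61, adjusted p = 0.381). Fcer1a had 1.19, 0.868, 0.241 and 0.812 CPM in Tyk2DIEC tumors, against a lowest of 0.341, a median of 1.02 and a highest of 3.37 CPM in Tyk2fl tumors (log2 fold change -0.67, SE 0.57, adjusted p = 0.437). Both repeated the pattern of Mcpt1, with Tyk2DIEC replicate 3 at the bottom and Tyk2fl replicate 4 at the top. Ms4a2 followed other libraries. It had 5.30, 0.970, 1.78 and 1.68 CPM in Tyk2DIEC tumors, against a lowest of 0.7099, a median of 2.502 and a highest of 10.05 CPM in Tyk2fl tumors (log2 fold change -0.48, SE 0.69, adjusted p = 0.668). Its highest libraries were Tyk2fl replicates 3 and 2 and Tyk2DIEC replicate 1, and without Tyk2fl replicate 3 the value was 0.09.

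Hdc and Kit were the genes with values above 0. Hdc had 28.0, 6.53, 6.59 and 9.04 CPM in Tyk2DIEC tumors, against a lowest of 5.93, a median of 9.19 and a highest of 12.6 CPM in Tyk2fl tumors. Only Tyk2DIEC replicate 1 lay above the Tyk2fl range (log2 fold change 0.42, SE 0.38, adjusted p = 0.462), and without it the value was -0.35. That library also had the highest summed smooth muscle markers of all 17, 1513 CPM, against 207 to 815 CPM in Tyk2fl libraries, and its part in the Hdc level was not tested. Kit had 18.2, 9.495, 10.97 and 12.5 CPM in Tyk2DIEC tumors, against a lowest of 6.51, a median of 10.9 and a highest of 13.7 CPM in Tyk2fl tumors. The groups overlapped apart from the same Tyk2DIEC library (log2 fold change 0.22, SE 0.20, adjusted p = 0.474), without which the value was -0.00.

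Markers of other cells were counted here as well, where 9.71% of all genes tested were called as lower. Fibroblast markers fell for 4 of 7 genes, among them Lum, a collagen-binding proteoglycan (log2 fold change -1.19, SE 0.23, adjusted p = 0.005399), and summed to 1267 to 1586 CPM in Tyk2DIEC, against 1307 to 2162 CPM in Tyk2fl libraries. Of the rest, Col3a1 and Pdgfrb lay below 0 without passing, and Pdgfra lay above 0 (log2 fold change 0.26, SE 0.17, adjusted p = 0.317). Leukocyte markers fell for 3 of 6 genes and summed to 119 to 164 CPM in Tyk2DIEC, against 125 to 193 CPM in Tyk2fl libraries. Ptprc (log2 fold change 0.05, SE 0.14, adjusted p = 0.816) and Itgb2 (0.09, SE 0.17, adjusted p = 0.761) lay above 0, and Cd53 lay below 0 without passing. Basophil markers fell for 2 of the 3 tested, Cd200r3 and Il3ra, which also count in mast cell lists below. Gata2 did not pass (log2 fold change -0.15, SE 0.26, adjusted p = 0.730), and Mcpt8 and Prss34 were not tested. Sums over the list were 13.4 to 17.6 CPM in Tyk2DIEC, against 16.9 to 29.9 CPM in Tyk2fl libraries. Il3ra alone had 9.43 to 12.0 CPM in Tyk2DIEC, against 11.4 to 22.4 CPM in Tyk2fl libraries. Of the 6 basophil markers Prss34 and Il4 were at 0 in some libraries. The part of these cells in the values of Tpsb2 was not tested.

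Whether the 2 deletions acted differently on a gene was tested as the Tyk2KO effect minus the Tyk2DIEC effect over all 17 libraries. None of the 10 genes passed, with adjusted p between 0.187 and 0.997, where 7.96% of 17252 genes did. At an unadjusted p under 0.05 the test gave 1 of the 10, Hdc, and 24.0% of all genes. The Hdc difference was -1.29 on the log2 scale (SE 0.58, unadjusted p = 0.0404, adjusted p = 0.187). For Tpsb2 the difference was 0.88 (SE 0.74, adjusted p = 0.506), with an interval of -0.57 to 2.32, which covers about 2 SE to either side, so its call in Tyk2DIEC tumors alone does not show that the deletions differed. The experiment and the genetic background of the controls cannot be told apart in this contrast. The imbalance of Xist between Tyk2DIEC and Tyk2fl libraries enters it as well.

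Ranked by mean level, Tyk2KO was the lowest genotype for Mcpt1, Mcpt2, Ms4a2, Fcer1a and Hdc. For Mcpt1 this rested on Tyk2fl replicate 4, since the Tyk2KO mean was 20.7 CPM and the Tyk2fl mean was 31.1 CPM with that library and 19.2 CPM without it. Tyk2DIEC was the lowest for Mcpt4, Cma1, Tpsb2 and Cpa3, and Tyk2fl for Kit. Between experiments, genotype and experiment cannot be told apart, in this order or in the contrasts below. The Tyk2fl libraries were also deeper, and only they included libraries of high Xist. Neighbouring genotypes in this order passed the test for none of the 10 genes, with adjusted p by edgeR from 0.182 to 0.991. Between the control groups, Tyk2fl against Tyk2wt, none of the 10 genes was called, where 12.9% of all genes were. The contrasts of Tyk2DIEC with Tyk2wt, Tyk2KO with Tyk2DIEC and Tyk2KO with Tyk2fl gave no call either, with 2.96%, 2.17% and 12.4% of all genes called. At an unadjusted p under 0.05, 1 of the 10 genes was lower in each of these 3 contrasts, where 12.0%, 8.8% and 14.4% of all genes were, and 0 in that of the control groups, where 15.5% were.

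The balance of mucosal to connective tissue proteases was taken per library as the summed CPM of Mcpt1 and Mcpt2 over that of Mcpt4, Cma1 and Tpsb2. Mucosal transcripts exceeded connective tissue transcripts in all 17 libraries, by 1.53-fold in Tyk2DIEC replicate 3 up to 7.47-fold in Tyk2DIEC replicate 1. The ratio was 4.79, 2.47 and 2.95 in the Tyk2KO libraries, against 3.70, 3.29 and 2.39 in the Tyk2wt libraries. On the log2 scale it averaged 1.71 ± 0.49 in Tyk2KO and 1.62 ± 0.33 in Tyk2wt tumors (SD, n = 3 each). The difference of 0.09 was far smaller than the pooled SD of 0.42, and its sign changed when single libraries were left out. In the Tyk2DIEC libraries the ratio was 7.47, 4.19, 1.53 and 4.84, against a lowest of 1.90, a median of 2.74 and a highest of 4.78 in Tyk2fl libraries. The log2 ratio averaged 1.965 ± 0.97 in Tyk2DIEC (SD, n = 4) and 1.48 ± 0.40 in Tyk2fl tumors (SD, n = 7). That difference of 0.48 was also within the pooled SD of 0.74. The wide spread of Tyk2DIEC came from the mucosal side, whose sum ran from 15.4 to 86.7 CPM in these 4 libraries while the connective tissue sum ran from 9.24 to 11.6 CPM.

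**Figure D3:**
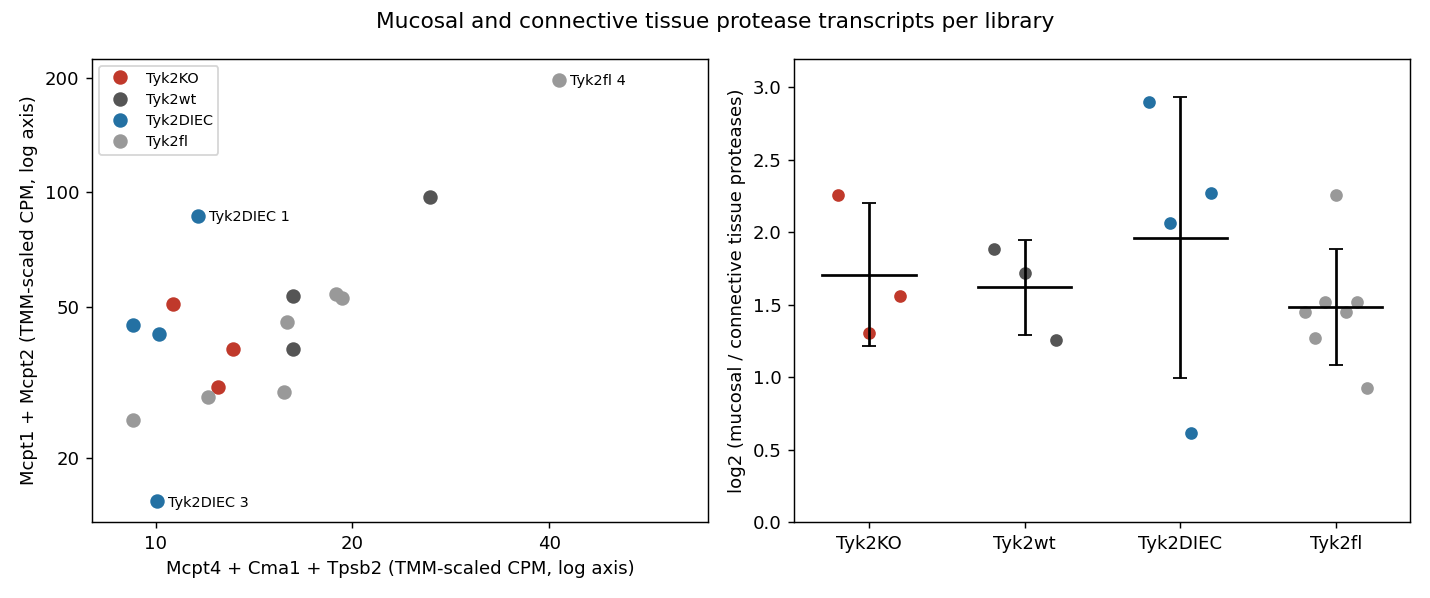
Left, summed mucosal proteases (Mcpt1 and Mcpt2) against summed connective tissue proteases (Mcpt4, Cma1 and Tpsb2) in TMM-scaled CPM on log axes, 1 point per library. Right, log2 ratio of both sums per library with group mean and SD; every library lies above 0, and the 4 Tyk2DIEC libraries span 0.61 to 2.90.

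The steadiness of the connective tissue sum in Tyk2DIEC tumors hid unequal members. Cma1 was its largest member in each of these 4 libraries and was highest in replicate 3, where Mcpt4 and Tpsb2 were lowest. Taken singly, the log2 ratio of Mcpt1 to Tpsb2 averaged 3.35 ± 0.27 in Tyk2DIEC (SD, n = 4; range 2.96 to 3.55) and 1.88 ± 0.51 in Tyk2fl tumors (SD, n = 7; range 1.18 to 2.599), with no overlap. The same ratio was 2.64 ± 0.39 in Tyk2KO and 2.63 ± 0.20 in Tyk2wt tumors (SD, n = 3 each). The log2 ratio of Mcpt2 to Tpsb2 ran from 2.62 to 3.37 in Tyk2DIEC, against 1.44 to 2.70 in Tyk2fl libraries, which overlapped slightly. These were 2 of 6 pairs examined and were picked after the values were seen, so they are given without a test. Against Cma1, the log2 ratio of Mcpt1 was 1.80 ± 1.295 in Tyk2DIEC (SD, n = 4) and 1.42 ± 0.58 in Tyk2fl tumors (SD, n = 7), a difference well within the spread.

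How far the genes varied together within genotypes was described by correlating log2 CPM after subtracting each genotype's mean, over the 17 libraries. Genes of both protease classes, though not Cma1, fell into 1 block. The block was drawn from these same correlations, so their height within it is no test of it. For Mcpt1, Mcpt2, Mcpt4, Tpsb2, Cpa3 and Fcer1a, the 15 pairwise Pearson r lay between 0.83 and 0.98 (Spearman rho 0.80 to 0.96). Mcpt1 and Mcpt2, both mucosal, had an r of 0.98, and Mcpt4 and Fcer1a one of 0.96. Tyk2fl replicate 4, the library richest in these transcripts, did not carry the block, since r was 0.76 to 0.97 without it. These points share library, depth and tumor composition, and no p is given.

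The other genes stood outside the block to different degrees. Cma1 correlated with its 6 genes at r of 0.42 to 0.54, but at -0.01 to 0.18 without Tyk2fl replicate 4, so that its link rested on that library. Kit gave 0.37 to 0.66. Hdc gave 0.19 to 0.44, and 0.34 to 0.66 without Tyk2fl replicate 4. Ms4a2 gave 0.17 to 0.39, while Hdc and Ms4a2 correlated with each other at 0.63, and at 0.65 without Tyk2fl replicate 4. The β chain gene Ms4a2 and the α chain gene Fcer1a of the same receptor reached an r of only 0.25. Ms4a2 and Cma1 ran in opposite directions (r = -0.27).

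**Figure D4:**
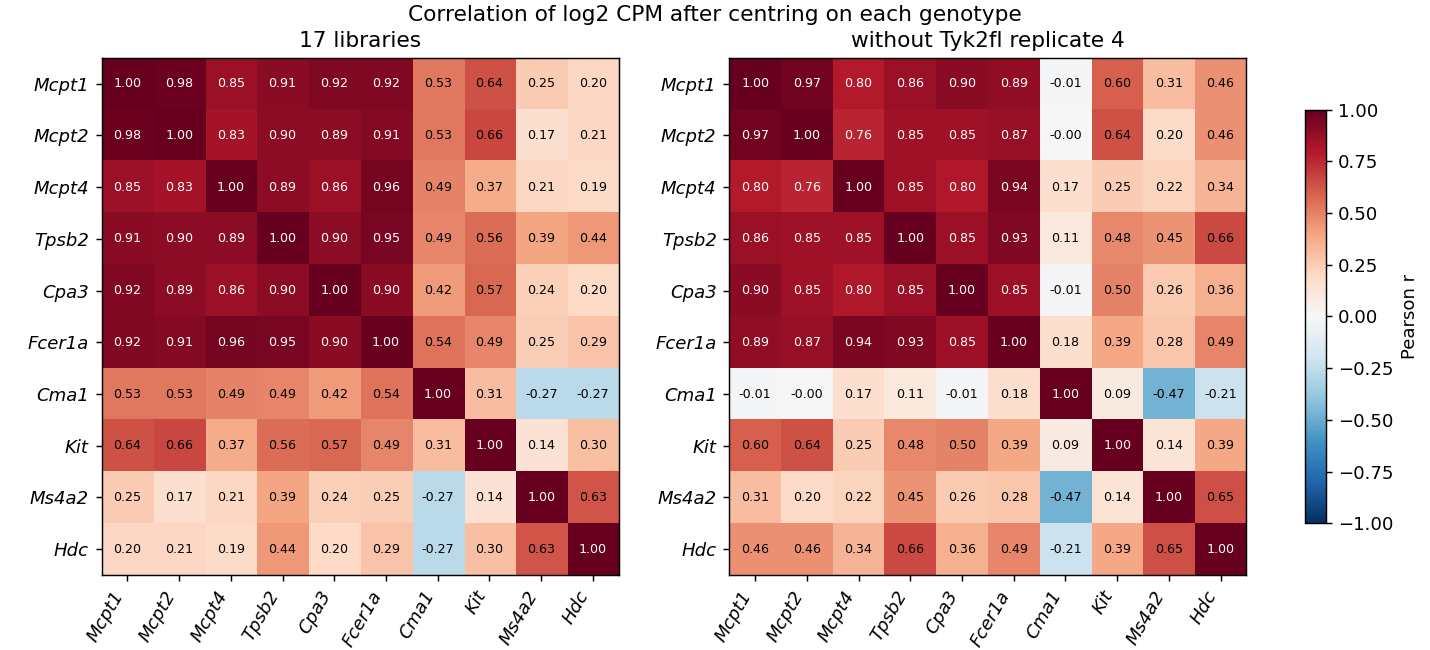
Pearson r between the mast cell genes over libraries after centring log2 CPM on each genotype mean, with all 17 libraries (left) and without Tyk2fl replicate 4 (right). The upper left block of Mcpt1, Mcpt2, Mcpt4, Tpsb2, Cpa3 and Fcer1a keeps r between 0.76 and 0.97 on the right, where Cma1 drops to -0.01 with Mcpt1.

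The search for similar genes covered 14654 genes with a mean of at least 1 CPM, the mast cell genes among them, which were left out of the ranking. Those most like Mcpt1 by this measure were Ighv6-3 (r = 0.85), AI506816 (0.84), Igkv1-110 (0.83), Ighv5-17 (0.81) and Cstf1 (0.80). Of these, Ighv6-3, Igkv1-110 and Ighv5-17 encode variable segments of antibodies. For Mcpt4 they were Zfp771, Tpst1, AI506816, Aldh9a1 and Mlec, at r of 0.79 to 0.82. For Cpa3 they were Dph2, Chid1, Dcakd, Sult4a1 and Acp6, at 0.78 to 0.80. The highest of these values lay within the 0.83 to 0.98 found among the genes of the block. Without Tyk2fl replicate 4 the first gene became Ntpcr for Mcpt1 (r = 0.91) and Cpa3 (r = 0.96) and Tnfsf14 for Mcpt4 (r = 0.83), so the lists depended on 1 library.

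Other mast cell genes were examined as lists. Of the other genes of the chymase locus, 3 of 12 could be tested in the Tyk2KO comparison and 4 in the Tyk2DIEC comparison. Gzmb, the granzyme of cytotoxic lymphocytes that some mast cells also make, fell in Tyk2KO tumors (log2 fold change -1.41, SE 0.23, adjusted p = 0.0243), with 27 to 30 counts in Tyk2KO, against 56 to 81 counts in Tyk2wt libraries. Of all genes tested, 2.13% fell in Tyk2KO tumors. None of the genes of this locus passed in Tyk2DIEC tumors. Among 9 genes for other tryptases and granule storage, none passed in either comparison. The tryptase gene Tpsab1 had 6 to 18 counts in Tyk2KO, against 5 to 25 in Tyk2wt, and 4 to 38 in Tyk2DIEC, against 20 to 86 in Tyk2fl libraries.

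Signalling below FcεRI held 11 genes, of which none passed in Tyk2KO tumors and 2 fell in Tyk2DIEC tumors, where 9.71% of all genes fell. These were Fcer1g, the γ chain shared with other Fc receptors (log2 fold change -0.61, SE 0.14, adjusted p = 0.0126), and the adaptor gene Lat2 (log2 fold change -0.52, SE 0.14, adjusted p = 0.0246). The median log2 fold change of the list was -0.18 in Tyk2KO and -0.05 in Tyk2DIEC tumors. Of the eicosanoid genes, Ptgs2, the inducible cyclooxygenase, fell in Tyk2KO tumors (log2 fold change -1.20, SE 0.18, adjusted p = 0.0156). It was 1 of 6 tested, where 2.13% of all genes fell. In Tyk2DIEC tumors 2 of 7 fell, against the same 9.71% of all genes. They were Alox5ap, which presents arachidonic acid to 5-lipoxygenase (log2 fold change -0.78, SE 0.19, adjusted p = 0.0138), and the leukotriene C4 synthase gene Ltc4s (log2 fold change -0.98, SE 0.32, adjusted p = 0.0454). Ltc4s had 4 to 8 counts in Tyk2DIEC, against 14 to 29 counts in the deeper Tyk2fl libraries.

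Genes for mast cell surface receptors and transcription factors gave no call among 10 tested in Tyk2KO tumors and 1 among 11 in Tyk2DIEC tumors, where 9.71% of all genes fell. This was Cd200r3, an activating receptor of mast cells and basophils (log2 fold change -0.83, SE 0.23, adjusted p = 0.0239). The connective tissue mast cell receptor gene Mrgprb2 had at most 12 counts in any library. Of the cytokine and homing genes, 13 were tested in Tyk2KO tumors and none passed. In Tyk2DIEC tumors 1 of 15 rose and 3 fell, where 10.2% of all genes rose and 9.71% fell. Itgae, the αE integrin chain of mucosal mast cells and intraepithelial lymphocytes, rose (log2 fold change 0.72, SE 0.16, adjusted p = 0.0103). The interleukin-3 receptor gene Il3ra fell (log2 fold change -0.66, SE 0.16, adjusted p = 0.0145), as did Tgfb1, a cytokine that induces Mcpt1 in cultured mouse mast cells (log2 fold change -0.30, SE 0.08, adjusted p = 0.0194), and the chemokine gene Ccl2 (log2 fold change -0.65, SE 0.21, adjusted p = 0.0496). Il9, a cytokine known for expanding mucosal mast cells, was not detected at this depth, with 0 counts in every library.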

How the data were processed

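Libraries were selected for poly(A) RNA, made directional and read from 1 end for 75 bp. The authors aligned reads with STAR 2.6.1a and deposited raw counts per gene (GENCODE release 23 in their methods, GRCm38 in the submitters' processing notes), with no normalization. Which strand column of STAR was kept was not given in the sources used here. Within each experiment, edgeR 4.0.16 (R 4.3.3) removed low counts (filterByExpr, minimum 10, total 15), computed TMM factors and gave quasi-likelihood tests. The Benjamini-Hochberg adjustment ran over all genes, and each standard error was the fold change over the root of F. CPM were scaled over all libraries. Identifiers were matched to GENCODE release 21 (55240 of 55421). Alternatives were DESeq2 1.42.0, limma 3.58.1 (voom), other scalings and filters, 1 fit of all libraries, a replicate block, thinned Tyk2fl libraries and leaving out libraries. The fits were tested on simulated data. The 10 genes and all lists were chosen with earlier results of these data known, and leaving out Tyk2fl replicate 4 from correlations and means was added after its levels were seen. All 10 genes are named, besides up to 3 called genes per list and the 5 genes most like Mcpt1, Mcpt4 and Cpa3. Tpsab1, Mrgprb2, Il9, Mcpt8 and Prss34 were named after their counts were seen.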

Additional observations from a re-analysis of the deposited data

Results flagged for a closer look

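A library far from the others of its group was looked for in 22 sets of values. Chance gives about 1 in 20 if values are normally distributed, which CPM need not be, and 7 were found. Of these, 6 were Tyk2fl replicate 4, with 103.1 CPM of Mcpt1, 94.8 of Mcpt2, 19.9 of Cma1, 17.01 of Tpsb2, 10.9 of Cpa3 and 3.37 CPM of Fcer1a, each the highest of the 7 Tyk2fl libraries. These genes vary together, so the 6 are not independent. In that library the summed leukocyte markers were 169 CPM, against a median of 169 CPM over the Tyk2fl group, and smooth muscle markers were its highest at 815 CPM. The seventh was Hdc in Tyk2DIEC replicate 1, with 28.0 CPM against 6.53 to 9.04 CPM in the other Tyk2DIEC libraries.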

How the results depend on the processing

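In Tyk2KO against Tyk2wt tumors the count of mast cell genes called was 0, but 3 with DESeq2 and 2 without the low-count filter. Fcer1a was not tested under the stricter filter. In Tyk2DIEC against Tyk2fl tumors the count was 1, but 0 with limma voom and without the Tyk2fl libraries of high Xist, and 0 to 1 when single libraries were left out. With the replicate number as a block it was 0 (Tpsb2 log2 fold change -1.81, adjusted p = 0.0674), and the block changed no other call. Same-numbered libraries did not deviate together (r of -0.08, -0.08 and -0.00 in the Tyk2KO experiment and -0.39, -0.10, 0.08 and -0.00 in the Tyk2DIEC experiment). With so few libraries per group, these values cannot show whether the numbers pair them. The difference between both deletions gave 0 in every fit. Values below the threshold changed sign when single libraries were left out. In Tyk2KO against Tyk2wt the log2 fold change ran from -0.87 to 0.23 for Cpa3 and from -0.29 to 0.027 for Kit. In Tyk2DIEC against Tyk2fl it ran from -0.72 to 0.47 for Mcpt1, -1.047 to 0.016 for Mcpt2, -1.20 to 0.093 for Ms4a2, -0.35 to 0.62 for Hdc and -0.0040 to 0.32 for Kit, and Ms4a2 was 0.49 without the Tyk2fl libraries of high Xist. In the difference between both deletions it ran from -1.052 to 0.15 for Mcpt1, -0.75 to 0.39 for Mcpt2, -0.28 to 0.51 for Mcpt4, -0.45 to 0.014 for Cma1, -0.23 to 1.054 for Cpa3 and -1.08 to 0.23 for Ms4a2. The difference in the log2 protease ratio ran from -0.19 to 0.29 for Tyk2KO minus Tyk2wt and from 0.17 to 0.93 for Tyk2DIEC minus Tyk2fl. Thinning Tyk2fl libraries to the depth of the others left Tpsb2 called (adjusted p = 0.0411). Counts as low as 5 for Fcer1a, 10 for Mcpt4 and 12 for Cpa3 limit what these libraries can show.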
